A study of Homo sapiens with 12 samples.

Results

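The 37 genes described here encode lysosomal enzymes, soluble cofactors and membrane proteins (27 genes) and subunits or an accessory protein of the vacuolar proton pump, the V-ATPase (10 genes). They were chosen by name with earlier results of these data known, and the V-ATPase genes were kept apart by their ATP6 prefix. Shares of all genes stand beside their counts as context and not as a test of the list. All 37 were matched by gene ID among 43613 genes with linear transcripts, and 34 of them passed the filter on low counts that left 19986 genes for testing. RNA was sequenced from PC3, an established human prostate cancer cell line whose genotype the labels give as WT, in 12 libraries of 3 per group. The groups were AgNPs and DOC together (COM), silver nanoparticles alone (AgNPs), DOC alone (DOC) and PBS (BLANK). The full name of DOC is not in the labels, nor is a dose or an exposure time. They do not say that replicates were separate cultures, so p-values measure the spread between these libraries, which may be technical.

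Lysosomes are the acidic organelles in which proteins, lipids, glycans and glycogen are broken down, and particles taken up by endocytosis are delivered to them. The V-ATPase keeps them acidic. Its V1 sector hydrolyses ATP in the cytosol, and its V0 sector carries protons through the membrane. Many lysosomal genes carry an E-box in their promoters, and within a longer palindrome, the CLEAR element, it is bound by the transcription factors TFEB, TFE3 and MITF.

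The promoter stretches that hold an E-box are shown first, because the E-box is the sequence best known to be shared by lysosomal genes. RefSeq promoter windows (GRCh38.p14, 250 bases before to 50 after the gene start) were at hand for 28 of the 37 genes. The E-box CACGTG, which reads the same on both strands, was present in 8 of the 28 windows (28.6%) and in 7.44% of 27305 windows of the same length. The longer palindrome TCACGTGA, which contains the E-box, was present in 5 of the 28 (17.9%) and in 1.04% of all windows. Each E-box upstream of the start is printed 5′ to 3′ on the gene's own strand with 15 bases on each side, and capitals mark the E-box. Matches whose flanks would cross the gene start are not printed. CD63 is an exception to the placing: its RefSeq span is chr12:55723535-55730041 on the − strand. Its printed stretch therefore lies inside the gene, downstream of that start.
CTSA (chr20:45891278-45891330, + strand): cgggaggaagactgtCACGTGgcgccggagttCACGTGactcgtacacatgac
CTSD (chr11:1763954-1763989, − strand): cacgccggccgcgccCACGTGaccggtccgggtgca
GAA (chr17:80101490-80101525, + strand): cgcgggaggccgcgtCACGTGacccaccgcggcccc
GAA, nearer the start (chr17:80101535-80101570, + strand): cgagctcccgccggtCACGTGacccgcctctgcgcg
NEU1 (chr6:31862927-31862962, − strand): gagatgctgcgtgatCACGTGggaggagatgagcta
LAMP1 (chr13:113297032-113297117, + strand): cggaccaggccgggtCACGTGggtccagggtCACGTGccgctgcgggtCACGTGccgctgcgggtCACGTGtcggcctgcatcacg
LAMP1, nearer the start (chr13:113297196-113297231, + strand): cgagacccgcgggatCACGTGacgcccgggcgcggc
CD63 (chr12:55729169-55729204, − strand): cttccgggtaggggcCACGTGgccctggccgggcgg
MCOLN1 (chr19:7522568-7522603, + strand): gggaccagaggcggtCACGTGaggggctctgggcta
ATP6V0D1 (chr16:67481196-67481231, − strand): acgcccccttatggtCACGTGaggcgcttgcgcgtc

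LAMP1 held 6 E-boxes in its window, 4 of them in a row, and CTSA, GAA and MCOLN1 held 2 each. The 250 bases before the start of GLA are shown as well, because GLA had the largest fold change among these genes in COM and in AgNPs against BLANK. No E-box is in this window.
GLA (chrX:101407926-101408175, − strand): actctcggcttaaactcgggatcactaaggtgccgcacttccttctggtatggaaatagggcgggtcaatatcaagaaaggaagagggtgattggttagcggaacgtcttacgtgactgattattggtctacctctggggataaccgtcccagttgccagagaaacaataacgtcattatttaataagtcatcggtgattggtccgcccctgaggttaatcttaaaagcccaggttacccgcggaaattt

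Library depth differed with the group, and ranged from 10996446 to 11069928 summed counts in COM, 13049868 to 13362290 in AgNPs, 18603100 to 19421873 in DOC and 22573481 to 22769479 in BLANK. Depth and treatment therefore cannot be told apart in the groups as sequenced. All libraries were also thinned to the shallowest by a random draw that was not repeated, so borderline calls could differ in another draw. The lysosomal genes that then passed against BLANK numbered 18 in COM, 14 in AgNPs and 2 in DOC. At full depth they numbered 18, 15 and 6. After thinning the V-ATPase genes numbered 4 in COM, 3 in AgNPs and 0 in DOC, beside 6, 3 and 0 at full depth. At full depth 49.6%, 30.9% and 17% of all genes passed in COM, AgNPs and DOC. Their share after thinning was not worked out, so the thinned counts have no background to be judged by. A floor of 3 counts lay between 0.132 and 0.273 CPM (read counts scaled to library sizes adjusted by TMM), and covers counting error only. Of the 5 epithelial markers, the keratins KRT8, KRT18 and KRT19 were each above 130 CPM in every library. CDH1 lay between 2.37 and 3.91 CPM, and EPCAM had 6.53 to 9.22 CPM in COM, 10 to 10.5 in AgNPs, 10.2 to 11.5 in DOC and 11 to 12.2 in BLANK. The 4 of 6 immune and macrophage markers found in the table summed to 1.92 CPM at most, with PTPRC at or near 0. The prostate marker TMPRSS2 was at or near 0, and the prostate factor HOXB13 moved with the groups, at 196 to 212 CPM in COM, 296 to 301 in AgNPs, 299 to 313 in DOC and 371 to 373 in BLANK. The 5 fibroblast markers summed to 68.4 to 76.8 CPM in COM and 100 to 112 in BLANK. Nearly all of it was COL1A1 and COL1A2, with DCN and LUM at or near 0. COL1A2 had 50.3 to 55.6 CPM in COM and 85.2 to 96.3 in BLANK. COL1A1 went the other way, at 16.8 to 21.8 CPM in COM and 14.4 to 15.7 in BLANK. So did PDGFRB, at 1.17 to 1.54 CPM in COM and 0.399 to 0.54 in BLANK. The part of these markers in the results was not tested.

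Per transcript length, cathepsin C and the tetraspanin CD63 led the group at 158.8 ± 0.655 and 147.9 ± 8.94 FPKM in BLANK (SD, n = 3). Next came the proton ring subunit ATP6V0C at 118.3 ± 7.96 FPKM, progranulin (GRN) at 104.5 ± 3.73 and prosaposin (PSAP) at 91.0 ± 3.97. The gap between these first 2 was close to the SD of CD63. At the low end were NEU1 at 11.3 ± 0.437 FPKM, ASAH1 at 8.53 ± 0.594 and SMPD1, acid sphingomyelinase, at 2.72 ± 0.386. Not tested were 3 members. HEXA, a hexosaminidase subunit, and CTSH, an aminopeptidase cathepsin, had at most 2 counts in any library. ATP6V0A1, a V0 subunit, had 0.0512 to 0.479 CPM, spread over 8 transcript rows of which none was a curated RefSeq mRNA. These rows may not hold all reads of the genes, so their low counts are not read as absence of expression.

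**Figure D1:**
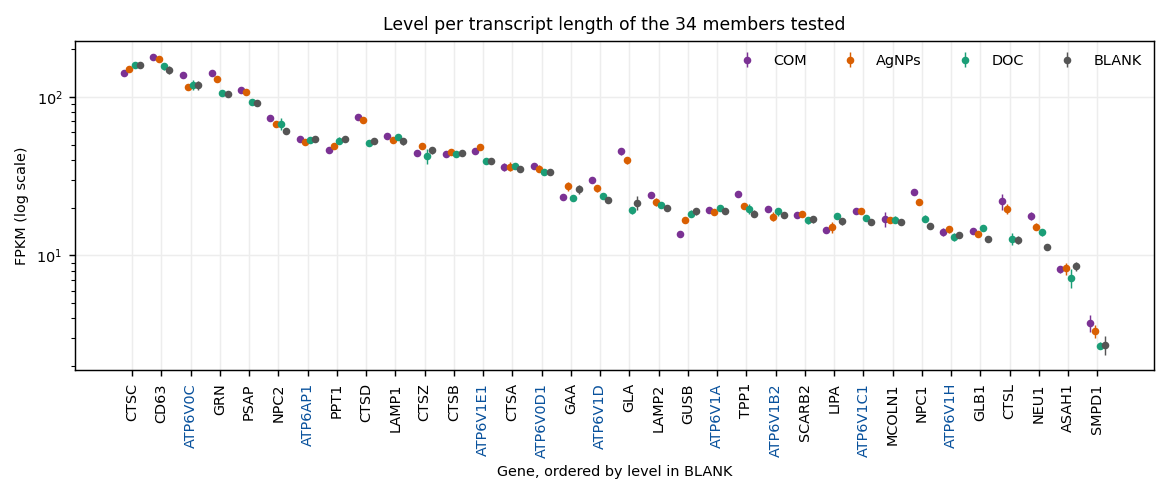
Mean FPKM on a log axis of the 34 members tested, ordered by their level in BLANK, with points for COM, AgNPs, DOC and BLANK from left to right and bars for the SD (n = 3). V-ATPase genes have blue names; ATP6V0C, at 118.3 FPKM in BLANK, is the highest of them, and GLA and CTSL show wide gaps between the 2 groups given AgNPs and BLANK.

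Summed over the 27 lysosomal genes, the level was 2618 ± 24.7 CPM in COM, 2566 ± 31.2 in AgNPs, 2347 ± 4.17 in DOC and 2352 ± 33.2 in BLANK (SD, n = 3). Every COM and AgNPs library lay above every DOC and BLANK library. The 10 V-ATPase genes summed to 718.9 ± 12.5 CPM in COM, 670.6 ± 1.92 in AgNPs, 649.8 ± 17.2 in DOC and 649.4 ± 8.07 in BLANK. Here the COM libraries stood above all others, and the AgNPs libraries lay narrowly above those of DOC and BLANK. In bulk RNA, fewer cells that express a gene and less RNA per cell cannot be told apart.

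**Figure D2:**
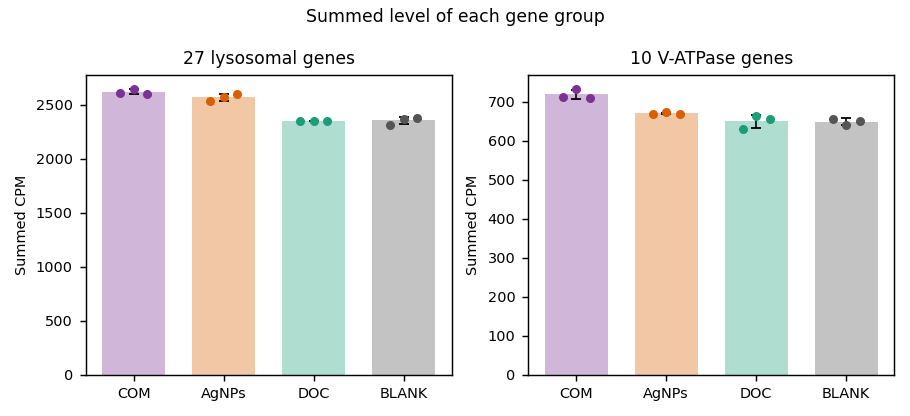
Summed CPM of the 27 lysosomal genes and of the 10 V-ATPase genes in COM, AgNPs, DOC and BLANK; bars are means, points single libraries and error bars the SD (n = 3). The lysosomal sum was 2618 CPM in COM and 2566 in AgNPs, against 2347 in DOC and 2352 in BLANK, and the V-ATPase sum stood apart in COM at 718.9 CPM.

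The first comparison asks what silver nanoparticles did to these genes. In AgNPs against BLANK, 11 of the 25 lysosomal genes tested rose, 4 fell and 10 did not pass an adjusted p of 0.05 (edgeR quasi-likelihood test). Of all genes tested, 30.9% passed, 14.9% upward and 16% downward. The risers spanned proteases (CTSL, CTSD, TPP1), glycan and glycolipid hydrolases (GLA, NEU1), all 3 soluble cofactors (GRN, PSAP, NPC2) and 3 membrane proteins (NPC1, CD63, LAMP2). Of the 9 V-ATPase genes 3 rose, all in V1, and 6 did not pass. The median log2 fold change was 0.10 for the lysosomal and 0.04 for the V-ATPase genes, beside 0.01 over all genes.

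Fewer members passed in DOC alone. Against BLANK, 4 lysosomal genes rose (NEU1, NPC2, NPC1, GLB1), 2 fell (ASAH1, GAA) and 19 did not pass, where 17% of all genes passed, 7.17% upward and 9.81% downward. None of the 9 V-ATPase genes passed with edgeR, DESeq2 or limma, and none had an unadjusted p below 0.05. Their largest absolute log2 fold change was 0.07. The lysosomal count of 6 depended on single libraries: it was 3 without DOC replicate 2, 2 without DOC replicate 3 and 3 without BLANK replicate 2. With DESeq2 it was 3, and with all libraries thinned to the shallowest it was 2.

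With both agents, 13 lysosomal genes rose, 5 fell and 7 did not pass in COM against BLANK, where 49.6% of all genes passed, 25.1% upward and 24.5% downward. Of the V-ATPase genes 6 rose, none fell and 3 did not pass. The median log2 fold change was 0.11 for the lysosomal and 0.15 for the V-ATPase genes, beside 0.03 over all genes. AgNPs, DOC and COM share the BLANK libraries, so their values are given side by side and not as independent results.

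**Figure D3:**
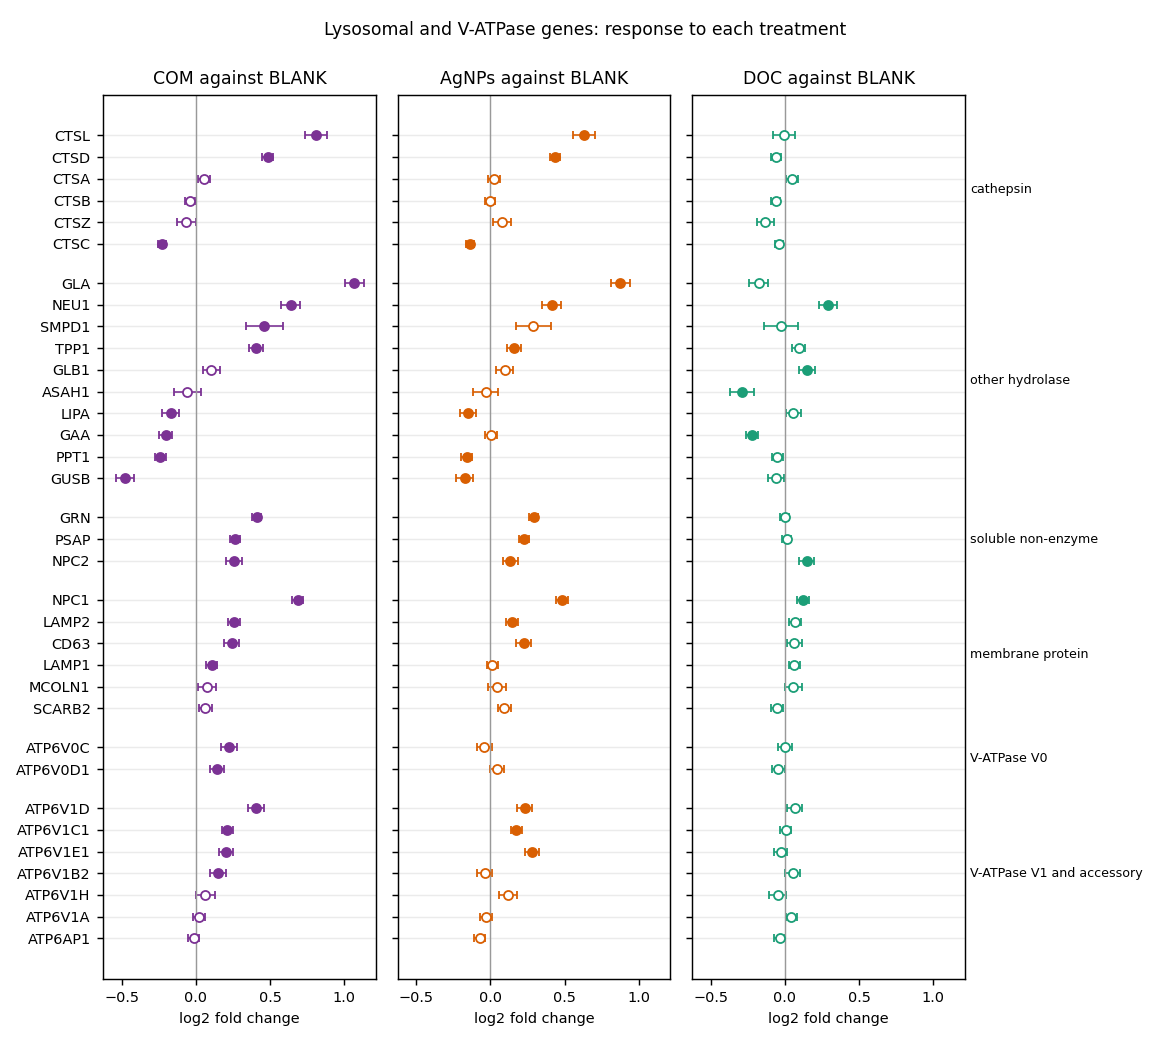
Log2 fold change against BLANK of the 34 members tested in COM, AgNPs and DOC, grouped by role; bars are standard errors of the fit, filled points passed an adjusted p of 0.05 and open points did not. GLA and CTSL lie furthest to the right in COM and AgNPs and GUSB furthest to the left in COM, while most DOC points are open and near 0.

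Among the cathepsins, the endopeptidases CTSL and CTSD rose with silver and CTSC fell. Cathepsin L (CTSL, chr9:87726119-87731469), a cysteine protease, had 38.3, 32.3 and 32.0 CPM in COM, 28.1, 32.3 and 30.3 in AgNPs, 21.1, 19.0 and 18.2 in DOC, and 18.9, 18.9 and 20.8 in BLANK. No COM or AgNPs library overlapped DOC or BLANK. Its log2 fold change against BLANK was 0.81 ± 0.08 in COM (SE, 1.75-fold, adjusted p = 1.97e-11), 0.63 ± 0.07 in AgNPs (1.55-fold, adjusted p = 1.29e-08) and -0.01 ± 0.07 in DOC. Cathepsin D (CTSD, chr11:1752755-1763927), the main lysosomal aspartyl protease, had 152, 152 and 145 CPM in COM, 141, 149 and 144 in AgNPs, 99.1, 105 and 103 in DOC, and 103, 108 and 109 in BLANK. It too separated the libraries with silver from those without, at 1.40-fold in COM (log2 0.48 ± 0.04, adjusted p = 1.14e-13) and 1.35-fold in AgNPs (0.44 ± 0.04, adjusted p = 3.48e-12). The COM and AgNPs libraries overlapped for both genes. In GENCODE v29 a same-strand readthrough gene covers 41.7% of the exon bases of CTSD.

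Cathepsin C (CTSC, chr11:88293592-88337736), a dipeptidyl peptidase that activates other proteases, had 309, 300.3 and 305 CPM in COM, 326, 321 and 329 in AgNPs, 352, 346 and 347 in DOC, and 356, 359.8 and 358 in BLANK. The 4 groups did not overlap, with COM lowest and BLANK highest. The log2 fold change was -0.23 ± 0.03 in COM (adjusted p = 6.85e-09) and -0.14 ± 0.03 in AgNPs (adjusted p = 0.000131), while the -0.04 ± 0.03 in DOC did not pass. Cathepsins A, B and Z did not pass in any of the 3 comparisons with BLANK, with log2 fold changes from -0.13 (CTSZ in DOC) to 0.08 (CTSZ in AgNPs). Without DOC replicate 1, CTSZ passed as lower in DOC (adjusted p = 0.000185), and CTSB too (0.046). CTSA and CTSB varied least, between 95.3 and 108 CPM and between 155 and 168 CPM over all 12 libraries.

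The other hydrolases split in both directions. GLA (chrX:101397803-101407925) encodes alpha-galactosidase A, which removes galactose from glycolipids and is deficient in Fabry disease. Its level was 60.6, 63.4 and 57.4 CPM in COM, 50.4, 53.1 and 55.4 in AgNPs, 26.9, 24.1 and 25.6 in DOC, and 25.5, 30.7 and 30.3 in BLANK. The COM libraries were above those of AgNPs, and both were far above DOC and BLANK. The fold change was 2.10 in COM (log2 1.07 ± 0.06, adjusted p = 4.28e-16) and 1.84 in AgNPs (0.88 ± 0.06, adjusted p = 1.76e-13). In DOC it was -0.18 ± 0.06 on the log2 scale and did not pass (adjusted p = 0.0593), though it passed without DOC replicate 1 (0.0221) or BLANK replicate 1 (0.00489). RPL36A-HNRNPH2, which spans GLA on the opposite strand, shares no exon base with it in GENCODE v29 and had mean levels between 68.5 and 69.8 CPM in all 4 groups.

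NEU1 (chr6:31857659-31862821), the sialidase that trims sialic acid from glycoproteins, had 35.1, 37.4 and 33.5 CPM in COM, 28.7, 30.6 and 31.3 in AgNPs, 26.5, 29.01 and 27.7 in DOC, and 23.01, 23.3 and 21.7 in BLANK. No treated library of NEU1 overlapped BLANK, and the gene was called upward in each treatment, as were NPC1 and NPC2. On the log2 scale the change was 0.64 ± 0.06 in COM (adjusted p = 1.13e-10), 0.41 ± 0.06 in AgNPs (adjusted p = 2.3e-06) and 0.29 ± 0.06 in DOC (adjusted p = 0.000747). Tripeptidyl peptidase TPP1 rose by 0.40 ± 0.05 in COM and 0.16 ± 0.05 in AgNPs, where the call ended without BLANK replicate 3 (adjusted p = 0.051). SMPD1 rose in COM (0.46 ± 0.12, adjusted p = 0.00182), and its 0.29 ± 0.12 in AgNPs did not pass (adjusted p = 0.0658) but did so without BLANK replicate 3 (0.0163).

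GUSB (chr7:65960684-65982213), beta-glucuronidase, had the largest decrease: 27.1, 28.2 and 26.3 CPM in COM, 32.3, 35.1 and 33.6 in AgNPs, 35.1, 35.6 and 38.3 in DOC, and 36.2, 39.8 and 37.7 in BLANK. Its COM libraries lay below all others, at -0.48 ± 0.06 on the log2 scale (adjusted p = 3.51e-08). In AgNPs it was -0.17 ± 0.06 (adjusted p = 0.0195), a call that ended without AgNPs replicate 1 (0.15), AgNPs replicate 3 (0.0757) or BLANK replicate 2 (0.123). GUSB is uncertain as a count: 73.8% of its counts lay on predicted mRNA rows and 6.91% on curated ones, and related pseudogenes were expressed, GUSBP11 at 79.4 CPM in COM and 75.8 in BLANK.

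Acid ceramidase (ASAH1, chr8:18055992-18084961), which cleaves ceramide, was the largest decrease in DOC. It had 15.8, 15.9 and 16.6 CPM in COM, 14.9, 15.8 and 18.5 in AgNPs, 15.2, 13.8 and 12.1 in DOC, and 17.2, 17.4 and 15.6 in BLANK. The DOC libraries lay just under those of BLANK, at -0.29 ± 0.08 on the log2 scale (adjusted p = 0.0125). The call ended without DOC replicate 3 (0.112), without BLANK replicate 2 (0.0651) and when all libraries were thinned to the shallowest (0.333). Acid alpha-glucosidase (GAA), which degrades glycogen, fell in DOC (-0.22 ± 0.04, adjusted p = 0.00012) and in COM (-0.20 ± 0.04, adjusted p = 0.000141), and was 0.00 ± 0.04 in AgNPs.

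PPT1, a thioesterase that removes palmitate from proteins, fell by 0.24 on the log2 scale in COM and by 0.16 in AgNPs. CAP1, on the opposite strand, covers 23.4% of its exon bases and rose, to a mean of 264 CPM in COM, against 227 in BLANK. Strand was not stated for the counting, so reads of the overlap cannot be assigned. Lysosomal acid lipase (LIPA) fell by 0.17 in COM and by 0.15 in AgNPs. The COM call ended without COM replicate 3 (0.0865) or BLANK replicate 1 (0.0902), and the AgNPs call without AgNPs replicate 1 (0.263), AgNPs replicate 2 (0.0937), BLANK replicate 1 (0.171) or BLANK replicate 2 (0.0509). Beta-galactosidase (GLB1) passed in DOC at 0.15 ± 0.05 (adjusted p = 0.0481), but that call held in 4 of 23 alternatives and in none of the 12 that left out a library (adjusted p 0.0516 to 0.143). TMPPE, which shares 83 exon bases with GLB1 on the same strand, rose by 0.30 ± 0.07 in DOC.

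The 3 soluble non-enzyme proteins rose in both groups given silver. GRN (chr17:44345302-44353106), progranulin, a secreted precursor delivered to lysosomes, had 309, 318 and 321 CPM in COM, 285, 289.5 and 299 in AgNPs, 232, 239.9 and 240.4 in DOC, and 236, 230.0 and 247 in BLANK. DOC and BLANK overlapped, and COM and AgNPs each stood clear of them and of each other. On the log2 scale the change was 0.41 ± 0.03 in COM (adjusted p = 1.54e-13), 0.29 ± 0.03 in AgNPs (adjusted p = 1.63e-09) and 0.00 ± 0.03 in DOC.

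PSAP (chr10:71816298-71851251), the precursor of the saposins that present sphingolipids to hydrolases, had 309, 314 and 305 CPM in COM, 291, 309 and 304 in AgNPs, 269, 257 and 252 in DOC, and 246, 264 and 263 in BLANK. COM and AgNPs overlapped each other but not DOC or BLANK. The log2 fold changes were 0.27 ± 0.03 in COM and 0.23 ± 0.03 in AgNPs (adjusted p = 1.53e-08 and 6.6e-07). NPC2, which carries cholesterol to NPC1, was called in each treatment, at 0.26 ± 0.05 in COM, 0.13 ± 0.05 in AgNPs and 0.15 ± 0.05 in DOC. The COM call held in all 23 alternatives. The AgNPs call held in 10 and ended without any of 7 libraries, COM libraries included, with adjusted p from 0.05 to 0.159. The DOC call held in 13 and ended without DOC replicates 2 (0.217) or 3 (0.143) or BLANK replicates 1 (0.138) or 3 (0.0837).

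Of the membrane proteins, NPC1 moved most. NPC1 (chr18:23506184-23586506), which passes cholesterol out of the lysosome, had 119, 125 and 117 CPM in COM, 106, 103 and 105 in AgNPs, 78.0, 80.8 and 85.5 in DOC, and 74.9, 73.3 and 76.3 in BLANK. The 4 groups did not overlap. The fitted log2 change was 0.69 ± 0.04 in COM (1.61-fold, adjusted p = 7.29e-17), 0.48 ± 0.04 in AgNPs (1.40-fold, adjusted p = 2.79e-12) and 0.12 ± 0.04 in DOC (adjusted p = 0.0263). The DOC call ended without DOC replicates 2 (0.0563) or 3 (0.227) or BLANK replicates 1 (0.0517) or 2 (0.11). RMC1, whose exons share 5.98% of NPC1's exon bases on the opposite strand, rose as well, to a mean of 26.7 CPM in COM and 25.1 in AgNPs, against 19.6 in BLANK.

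LAMP2 (chrX:120426148-120469349), an abundant glycoprotein of the limiting membrane, had 96.6, 93.3 and 95.6 CPM in COM, 90.6, 84.9 and 88.9 in AgNPs, 79.8, 84.6 and 85.8 in DOC, and 81.8, 80.2 and 76.8 in BLANK. The COM and AgNPs libraries lay above BLANK and the DOC libraries overlapped it. Against BLANK the log2 fold change was 0.26 ± 0.04 in COM (adjusted p = 2.04e-06) and 0.15 ± 0.04 in AgNPs (adjusted p = 0.00455). The isoform LAMP2B (NM_013995.2) held 86.2 ± 0.819% of its counts in COM, 88.6 ± 1.05% in AgNPs, 88.3 ± 1.10% in DOC and 89.6 ± 0.994% in BLANK. LAMP2A (NM_002294.2), which serves chaperone-mediated autophagy, held 13.3 ± 0.586% in COM and 10.03 ± 1.03% in BLANK. For this share in COM against BLANK a two-sided exact permutation test gave p = 0.1, the smallest that 3 against 3 libraries can give.

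CD63 rose by a like amount in COM and AgNPs, at 0.24 ± 0.05 and 0.23 ± 0.05 on the log2 scale. LAMP1, the other major membrane glycoprotein, was called in COM at 0.11 ± 0.04 (adjusted p = 0.017), which ended without COM replicate 2 (0.23) or BLANK replicate 1 (0.106). The lysosomal receptor SCARB2 and the calcium channel MCOLN1 did not pass against BLANK, with log2 fold changes between -0.06 and 0.09. SCARB2 passed without BLANK replicate 1 in AgNPs (0.0185) and in COM (0.0494).

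**Figure D4:**
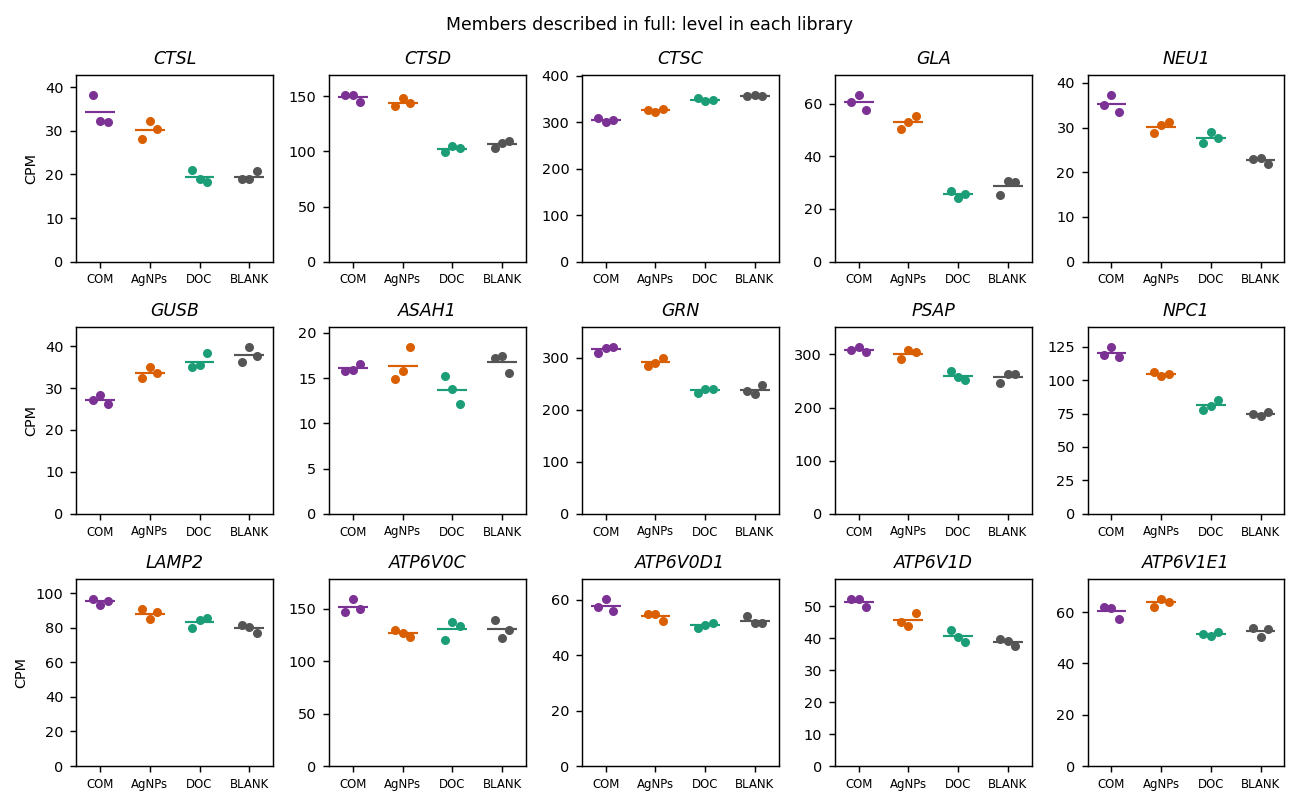
CPM of the 15 members described in full in every library of COM, AgNPs, DOC and BLANK; points are libraries and lines group means, on axes that start at 0. CTSL, CTSD, GLA, GRN and NPC1 separate the COM and AgNPs libraries from the rest, ATP6V0C is raised in COM, and GUSB is lowest in COM at 26.3 to 28.2 CPM.

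In the V0 sector of the V-ATPase, both tested genes rose in COM and neither passed in AgNPs or DOC. ATP6V0C (chr16:2513726-2520218), which forms the proton-carrying ring, had 147, 159 and 149.7 CPM in COM, 129, 127 and 123 in AgNPs, 120.2, 137 and 133 in DOC, and 139.5, 122 and 129.5 in BLANK. The COM libraries lay above all 9 others, which overlapped. A same-strand readthrough gene in GENCODE v29 covers 57.5% of its exon bases. The log2 fold change was 0.22 ± 0.05 in COM (adjusted p = 0.00128), -0.04 ± 0.05 in AgNPs and 0.00 ± 0.05 in DOC. ATP6V0D1 (chr16:67438019-67481157), which couples the ring to the V1 rotor, had 57.2, 60.2 and 56.0 CPM in COM, 55.0, 54.9 and 52.2 in AgNPs, 49.8, 50.7 and 51.6 in DOC, and 54.1, 51.6 and 51.5 in BLANK. The COM libraries were again highest, at 0.14 ± 0.05 against BLANK (adjusted p = 0.0112). That call ended without COM replicate 2 (0.116), with DESeq2 (0.174) and without a filter (0.201).

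In V1, ATP6V1D, ATP6V1E1 and ATP6V1C1 rose in both groups given silver. ATP6V1D (chr14:67337872-67359804), part of the central rotor, had 52.2, 52.3 and 49.8 CPM in COM, 45.1, 43.7 and 48.0 in AgNPs, 42.7, 40.5 and 38.8 in DOC, and 39.8, 39.2 and 37.5 in BLANK. COM and AgNPs were each clear of BLANK, and DOC overlapped it. Its log2 fold change was 0.41 ± 0.05 in COM (adjusted p = 5.03e-08) and 0.23 ± 0.05 in AgNPs (adjusted p = 0.00067). EIF2S1, on the opposite strand, shares 6.33% of its exon bases and fell, to a mean of 234 CPM in COM, against 296.7 in BLANK.

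ATP6V1E1 (chr22:17592136-17628822), part of the peripheral stalk, had 62.1, 61.6 and 57.2 CPM in COM, 62.2, 65.1 and 64.1 in AgNPs, 51.4, 50.6 and 52.4 in DOC, and 53.9, 50.2 and 53.5 in BLANK. Here the AgNPs libraries were highest. The log2 fold change was 0.20 ± 0.05 in COM (adjusted p = 0.000546) and 0.28 ± 0.05 in AgNPs (adjusted p = 5.65e-06). ATP6V1C1, which takes part in assembling the 2 sectors, rose by 0.21 ± 0.04 in COM and 0.17 ± 0.04 in AgNPs. The nucleotide-binding subunit ATP6V1B2 was called in COM alone of the 3 treatments, at 0.15 ± 0.05 (adjusted p = 0.0186), and that call ended without COM replicate 2 (0.0684), COM replicate 3 (0.141) or BLANK replicate 1 (0.0729). The catalytic subunit ATP6V1A, the subunit ATP6V1H and the accessory protein ATP6AP1 did not pass against BLANK. Their log2 fold changes lay between -0.07 and 0.12.

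Adding DOC to silver was tested as COM against AgNPs. Of the lysosomal genes 5 rose (TPP1, NEU1, NPC1, GLA, GRN), 3 fell (GUSB, GAA, CTSC) and 17 did not pass, where 21.8% of all genes passed, 9.87% upward and 12% downward. The V-ATPase genes ATP6V0C, ATP6V1B2 and ATP6V1D rose and 6 did not pass. TPP1 had the largest increase among the lysosomal genes (0.24 ± 0.05, adjusted p = 0.000413), ATP6V0C the largest in the pump (0.26 ± 0.05, adjusted p = 0.00146) and GUSB the largest decrease (-0.31 ± 0.07, adjusted p = 0.000764). The lysosomal count was 5 without COM replicate 2 or AgNPs replicate 1 and 13 in a fit of these 6 libraries alone, and the V-ATPase count was 1 without COM replicate 2 or AgNPs replicate 1. Calls that ended without 1 library were those of CTSC, GLA, NEU1, GRN, ATP6V1B2 and ATP6V1D, with adjusted p between 0.0545 (CTSC without COM replicate 2) and 0.147 (ATP6V1B2 without AgNPs replicate 1).

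Adding silver to DOC, tested as COM against DOC, called 13 lysosomal genes upward and 4 downward, and 5 V-ATPase genes upward, where 36.6% of all genes passed, 18.1% upward and 18.5% downward. GLA had the largest difference at 2.37-fold (log2 1.24 ± 0.06, adjusted p = 3.04e-17), followed by CTSL at 1.76-fold (0.82 ± 0.08) and NPC1 at 1.48-fold (0.56 ± 0.04). GUSB was 1.33-fold lower (-0.42 ± 0.06, adjusted p = 1.22e-06). ASAH1 was called at 0.23 ± 0.09 (adjusted p = 0.0482), which held in 8 of 23 alternatives and reached 0.251 without DOC replicate 3. SCARB2 was called at 0.12 ± 0.04, which ended without COM replicate 1 (0.13), COM replicate 2 (0.113) or DOC replicate 1 (0.195).

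Set directly against each other, AgNPs exceeded DOC for 11 lysosomal and 4 V-ATPase genes and lay below it for 3 lysosomal genes (CTSC, LIPA, PPT1), where 25.6% of all genes passed, 13.7% upward and 11.9% downward. GLA differed most at 2.07-fold (log2 1.05 ± 0.06), then CTSL at 1.56-fold (0.64 ± 0.08) and CTSD at 1.41-fold (0.49 ± 0.04). Among the pump genes ATP6V1E1 led at 1.24-fold (0.31 ± 0.05, adjusted p = 2.15e-06). ATP6V1H was called at 0.17 ± 0.06 (adjusted p = 0.0483), in 6 of 23 alternatives. Calls that ended without AgNPs replicate 3, DOC replicate 2 or DOC replicate 3 included ASAH1, PPT1, CD63, CTSZ and ATP6V1D, and 1 left-out library also ended those of CTSC (AgNPs replicate 2, 0.0722), LIPA (AgNPs replicate 1, 0.0636) and SCARB2 (DOC replicate 1, 0.0546). The V-ATPase count was 2 without AgNPs replicate 3, DOC replicate 2 or DOC replicate 3.

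Whether the agents acted together beyond the sum of their single effects was tested as the interaction on the log2 scale, the effect of DOC with AgNPs minus its effect without. Only GLA passed, at 0.37 ± 0.09 (adjusted p = 0.0319), where 1.11% of all genes passed, 0.731% upward and 0.375% downward. The log2 fold change of GLA with DOC was 0.19 ± 0.06 in the presence of AgNPs, which passed, and -0.18 ± 0.06 in their absence, which did not. The call held in 9 of 22 alternatives, with adjusted p from 0.00188 to 0.263, and leaving out any of 8 libraries ended it (0.0537 to 0.132). Those were COM replicates 1 and 2, AgNPs replicates 1 and 2, DOC replicates 2 and 3, and BLANK replicates 2 and 3. At an unadjusted p below 0.05 the count was 6 of 25 lysosomal and 2 of 9 V-ATPase genes. The share of all genes at that unadjusted threshold was not worked out, so these counts are not read as an excess. No V-ATPase gene passed the adjusted test with the edgeR settings used for the counts above. With DESeq2, or with edgeR but no filter, 1 did. That gene was ATP6V0C, at 0.26 ± 0.07 and an adjusted p of 0.116 with those edgeR settings and 0.0415 with DESeq2. Over its alternatives the adjusted p ran from 0.00087 (no filter) to 0.343, and it passed without DOC replicate 2 (0.0366) or BLANK replicate 2 (0.0128).

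Further genes of the same compartment are given for context, from lists that were chosen with earlier results of these data known. Among 28 further hydrolases and activators tested, 12 rose and 6 fell in COM, 8 rose and 3 fell in AgNPs, and 1 rose and 1 fell in DOC. That is 64.3%, 39.3% and 7.14% of the list, beside 49.6%, 30.9% and 17% of all genes. IDS, which desulfates glycosaminoglycans, rose by 0.34 ± 0.04 in COM and 0.19 ± 0.04 in AgNPs on the log2 scale. The peptidase DPP7 fell by 0.48 in COM and by 0.29 in AgNPs. Of 27 further membrane proteins, 10 rose and 5 fell in COM, 5 rose and 5 fell in AgNPs, and 1 rose and 1 fell in DOC. These shares of 55.6% in COM and 37% in AgNPs were near those of all genes, and the 7.41% in DOC was below its 17%. LAPTM4A rose by 0.44 ± 0.05 and the chloride exchanger CLCN7 by 0.30 ± 0.04 in COM, while ABCB9, a peptide transporter, fell by 0.45.

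The remaining pump genes were also mixed, with 4 up and 3 down in COM of 12 tested, 1 up and 1 down in AgNPs, and 1 up and 2 down in DOC. The list's 58.3%, 16.7% and 25% stood beside 49.6%, 30.9% and 17% of all genes. ATP6V0E1 rose by 0.36 ± 0.05 in COM and 0.26 ± 0.05 in AgNPs. TCIRG1, an alternative V0 subunit a, fell by 0.37 in COM, by 0.24 in AgNPs and by 0.20 in DOC. Among proteins linked to joining V1 to V0, NCOA7 was 2.22-fold higher in COM and 1.82-fold higher in AgNPs (log2 1.15 ± 0.06 and 0.87 ± 0.06), and of the 6 genes of that list tested 2 rose and 1 fell in COM. Of 6 genes that tag hydrolases with mannose 6-phosphate or sort them by it, 3 fell and none rose in COM, 2 fell and 1 rose in AgNPs, and 2 fell in DOC. The 50% called in COM in this list and in the one before it was near the 49.6% of all genes. In AgNPs and DOC this list had 50% and 33.3% called, and the one before it 33.3% and 16.7%, beside 30.9% and 17% of all genes. GNPTAB, the catalytic subunit of the tagging enzyme, fell by 0.41 in COM, and the receptor M6PR by 0.24. In AgNPs GNPTAB fell by 0.25 and M6PR by 0.22, while the second receptor, IGF2R, rose by 0.11 ± 0.03.

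Of the factors that bind the CLEAR element, TFE3 was 2.31-fold higher in COM (log2 1.21 ± 0.04) and 1.84-fold higher in AgNPs (0.88 ± 0.04), and did not pass in DOC (0.05 ± 0.05). Its interaction passed too, at 0.28 ± 0.06 (edgeR adjusted p = 0.0152). MITF fell by 0.42 in COM and by 0.19 in AgNPs. TFEB, at a mean of 2.82 CPM in COM and 3.36 in BLANK, did not pass in any treatment. The calls can be set beside the E-boxes printed above. In AgNPs, 3 of 8 genes with an E-box rose (CTSD, NEU1 and CD63, the last with its E-box inside the gene) and none fell. Of 18 tested genes with a window but no E-box, 8 rose and 4 fell, where 14.9% of all genes passed upward and 16% downward. In COM, 5 of the 8 rose and 1 fell, and 10 of the 18 rose and 4 fell, where 25.1% of all genes passed upward and 24.5% downward. The 5 genes with TCACGTGA (CTSA, GAA, LAMP1, MCOLN1, ATP6V0D1) had log2 fold changes of 0.00 to 0.04 in AgNPs. In COM their range was -0.20 to 0.14, with LAMP1 and ATP6V0D1 up and GAA down. GLA, CTSL and NPC1, which had the largest rises in COM, have no E-box in their windows. NEU1 and CTSD, which had the next largest (log2 0.64 and 0.48), have 1 each. Whether TFE3 acts on any of these genes was not tested.

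A core of the antioxidant response element, TGACNNNGC on either strand, was in 11 of the 28 windows (39.3%) and in 13.6% of all windows. In the members, 2 of its 13 matches share bases with an E-box. The matches of GLA and PPT1 begin after the gene start, at bases 18 and 2 of the gene. That of GLA is therefore not in the stretch printed above. Of the 10 carriers tested, 3 rose (GLA, CTSL, CTSD) and 2 fell (CTSC, PPT1) in AgNPs, while of the 16 tested genes with a window but no such core 8 rose and 2 fell, where 30.9% of all genes passed. The amino acid response core TGATGNAA, searched on both strands, was in none of the 28 windows and in 3.67% of all. A match is a string of letters and not evidence of binding.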

How the data were processed

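RNA of 12 PC3 libraries was analysed, grouped by the labels. Per the labels' protocols, total RNA was extracted with TRIzol and libraries were made with a BGI mRNA kit. Per the submitters' processing notes, HISAT2, Bowtie2 2.2.5, RSEM and GRCh38 were used; the role of each, the strand setting and the annotation are not given in the sources used here. The deposited table gives expected counts per transcript, which are not normalised, and expression values that the authors left without a unit in the header. These deposited values act as FPKM for linear rows, as worked out from counts and lengths. Columns of group means (10) were not used, and circular RNA rows were left out.

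For each gene ID, the expected counts of its linear rows were added up and rounded to whole numbers. edgeR 4.0.16 (R 4.3.3) was run with TMM factors, a low-count filter (filterByExpr, by group) and a robust quasi-likelihood model that held all 12 libraries. Tests were two-sided, with Benjamini-Hochberg adjustment over 19986 genes, and a gene was called at an adjusted p below 0.05. CPM values use TMM library sizes. A ± beside a log2 fold change is the standard error of the fit. FPKM of a gene is the sum over its linear rows, and serves only to compare levels between genes. The common biological coefficient of variation was 0.033. Replicate libraries differed by more than counting error in every group. The method was also run on simulated counts drawn with the fitted spread, which cannot show whether the replicates here were independent.

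Made were 7 comparisons: each treatment with BLANK, each pair of treatments, and the interaction. The members, the further gene lists and the motifs were chosen with earlier results of these data known. Members given in full are, in each role, at most 2 with the largest rise and 2 with the largest fall among those called in any comparison with BLANK, and any called in the interaction. Genes of the further lists are named from the 4 with the smallest adjusted p per list and comparison. Alternatives were no filter, RLE factors, a minimum of 1 CPM in 3 libraries, a replicate block, only the libraries of both groups, RefSeq rows only, DESeq2 1.42.0, limma 3.58.1 on log2(FPKM + 1) and log2(FPKM + 0.1), and each library left out; thinning to the shallowest library and plain library totals were added after seeing the data. Positions of genes come from RefSeq (GRCh38.p14), and exon overlaps come from GENCODE v29.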

Additional observations from a re-analysis of the deposited data

Results flagged for a closer look

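GLA was picked out because the effect of DOC differed with and without AgNPs in the interaction test, by 0.37 on the log2 scale (SE 0.09, edgeR adjusted p = 0.0319). In CPM the 3 libraries averaged 60.5 in COM and 53.0 in AgNPs, and 25.5 in DOC and 28.8 in BLANK. The call held in 9 of 22 alternatives and ended in each of 8 fits that left out 1 library. No group of 3 libraries was tested for outlying samples.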

How the results depend on the processing

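No called fold change of a member changed direction in any of the 23 alternatives (22 for the interaction). Over members, comparisons and alternatives, 5197 fold changes kept their side of the threshold, 203 lost a call and 40 gained one. The share of all genes called was not worked out for the alternatives. Counts of calls in them, here and in the results above, therefore have no background to be judged by. Counts of calls changed by over 1.5 times in these cases, and the cause was not tested. For lysosomal genes in DOC against BLANK (6), the count was 3 with DESeq2 or only the libraries of both groups and 2 with either limma fit or thinning. For COM against AgNPs (8) it was 13 with only the libraries of both groups. For the lysosomal interaction (1) it was 0 with DESeq2, either limma fit, thinning or library totals. V-ATPase counts were 1 with DESeq2 in COM against AgNPs (3), 2 with DESeq2 or thinning in AgNPs against DOC (4), and 1 with no filter, DESeq2 or thinning in the interaction (0). With 1 library left out, lysosomal counts ran from 12 to 15 in AgNPs against BLANK, 2 to 9 in DOC against BLANK, 17 to 18 in COM against BLANK, 5 to 10 in COM against AgNPs, 15 to 17 in COM against DOC, 10 to 15 in AgNPs against DOC and 0 to 1 in the interaction. V-ATPase counts ran from 3 to 3, 0 to 0, 4 to 6, 1 to 3, 5 to 5, 2 to 6 and 0 to 1 in the same order. Same-numbered libraries correlated between -0.111 and 0.05 after removing group means, so the numbers were not taken to pair samples. A replicate block gave lysosomal counts of 15, 5, 18, 8, 16, 14 and 1 and V-ATPase counts of 3, 0, 6, 3, 5, 3 and 0 in the same order, and ended the call of 3 of 238 member fold changes. No scaling moved the median of all genes by 0.1 on the log2 scale. Against BLANK in COM the standard error was 0.12 for SMPD1, the tested member with the lowest FPKM in BLANK. It was 0.03 for CTSC, the member with the highest. The part of depth in this difference was not tested.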
